A study of Oryza sativa with 16 samples.

Results

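PORA, NYC1 and SGR act at opposite ends of the life of the chlorophyll molecule, and their transcripts were followed in rice seedlings given 6 plant hormones. The genes were chosen by name: every array probe set was taken whose annotated gene has PORA, NYC1 or SGR as its symbol or synonym. This gave 3 genes of the 17905 with a probe set of their own, and 4 of the 57194 rice probe sets, 1 for PORA (locus LOC4337415), 1 for NYC1 (LOC4327178) and 2 for SGR (LOC4347672), and all 4 were bright enough to be tested. The SGR probe sets carry the Affymetrix suffixes _at (a set designed for 1 transcript) and _s_at (a set that may also match related transcripts), and they are kept apart below under these suffixes.

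The seedlings belonged to the indica variety IR64 and were 7 days old after hydroponic growth in days of 14 h light and 10 h dark. Whole seedlings stood for 3 h in water, in 50 µM of the auxin indole-3-acetic acid (IAA) or the cytokinin benzyl aminopurine (BAP), or in 100 µM of abscisic acid (ABA), the ethylene precursor 1-aminocyclopropane-1-carboxylic acid (ACC), salicylic acid (SA) or jasmonic acid (JA). Each hormone had 2 biological replicates, and the water controls came as 2 sets of 2, control1 and control2, which gave 16 arrays of the Affymetrix rice genome array. All groups share variety, age and growth, and the RNA came from whole seedlings, so that fewer cells of a type and less RNA per cell cannot be told apart.

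Chlorophyll is made from glutamate through the tetrapyrrole pathway. Magnesium chelatase (subunits CHLH, CHLI and CHLD) commits protoporphyrin to chlorophyll, and the light-dependent protochlorophyllide oxidoreductases PORA and PORB then reduce protochlorophyllide to chlorophyllide, a step that needs light in flowering plants. Breakdown begins when the chlorophyll b reductases NYC1 and NOL turn chlorophyll b toward chlorophyll a and when SGR (stay-green), a magnesium dechelatase, removes the metal from chlorophyll a. Rice mutants in NYC1 and SGR keep green leaves during senescence, and ABA and jasmonate are long known as hormones that promote yellowing.

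Levels are GCRMA values on the log2 scale, and a change is a difference of log2 means with limma's standard error (SE). Of the 57194 rice probe sets, 24100 had a value above 5 in at least 2 arrays and were tested, and replicates of a group correlated over these with r between 0.987 and 0.992. Which control set belongs to which hormone is not given by the labels. The poly-A spike-in transcripts, added to the RNA before labelling, had 5' minus 3' differences of -1.56 to -1.22 on the 6 arrays of control1, IAA and BAP and of -1.17 to -0.63 on the other 10. The 3' minus 5' difference of cyclophilin, which reports on RNA quality, was 1.19 to 1.5 on the first 6 arrays and 1.48 to 1.94 on the others, and that of actin was 0.42 to 1.09 and 1.02 to 1.59. Between control2 and control1, 21.1% of tested probe sets had an adjusted p under 0.05. Over both directions the shares of tested probe sets called against the 4 control arrays were 4.14% for IAA, 1.29% for BAP, 0.614% for ACC, 9.2% for SA and 5.96% for JA. ABA moved far more, with 26.9% called lower and 21.2% called higher. Changes of the members against each control set are therefore given beside those against the 4 control arrays. Below, control1 is taken as the set of the IAA and BAP spike-in group and control2 as that of the others. This grouping was drawn from the poly-A differences, whose ranges nearly meet (-1.22 and -1.17), and the cyclophilin and actin ranges overlap.

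PORA was the member with the widest range, and ABA and SA lowered it. Its log2 level was 13.22 and 13.28 in the control1 arrays and 11.91 and 12.56 in the control2 arrays. Under ABA it was 8.72 and 8.29, and under SA 10.53 and 10.99. The arrays of both hormones lay below all 4 control arrays, and those of ABA also lay below every other array of the series.

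Against the 4 control arrays PORA fell by 4.24 ± 0.33 log2 units under ABA (95% interval -4.97 to -3.51, n = 2 treated and 4 control arrays, adjusted p = 1.09e-06), an 18.8-fold drop. ABA lowered 26.9% of the tested probe sets at this threshold, and by size the fall of PORA was 38th of 24100. The fall was -4.74 against control1 and -3.73 against control2, with adjusted p = 5.49e-08 and 3.44e-07, where 29.7% and 27.7% of probe sets were called lower. Against the mean of the other 5 hormones, a comparison without any control array, the ABA level was lower by 3.61 ± 0.3 (adjusted p = 1.37e-06), where 27.8% of probe sets were called lower.

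Under SA the fall of PORA was -1.98 ± 0.33 log2 units, 3.96-fold (adjusted p = 0.00376), in a comparison in which 4.67% of probe sets were called lower. It was -2.49 against control1 and -1.48 against control2, with adjusted p = 6.91e-05 and 0.00371, where 16% and 4.21% of probe sets were called lower. The call was lost without SA replicate 1 (-1.75, adjusted p = 0.0824) and in a fit of the SA and control arrays alone (adjusted p = 0.0748). Against the mean of the other 5 hormones, which includes the low ABA arrays, the SA level differed by -0.91 ± 0.3 (adjusted p = 0.104, where 2.67% were called lower). With the ABA arrays left out of that mean, an alternative chosen after seeing the data, the difference was -1.7 and passed (adjusted p = 0.00532).

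ACC and JA also left PORA below the controls, but what was called depended on the control set. Its log2 level was 11.19 and 11.83 under ACC and 11.53 and 11.84 under JA. These 4 arrays lay below the lowest control array, in the case of the higher ACC and JA arrays by less than 0.1. The changes against the 4 control arrays were -1.23 ± 0.33 for ACC and -1.06 ± 0.33 for JA, with adjusted p = 0.131 and 0.0919. Against control1 they were -1.74 and -1.56 and passed (adjusted p = 0.000778 and 0.00135, with 13.5% and 13.7% of probe sets called lower), whereas against control2, the set of their own spike-in group, they were -0.72 (95% interval -1.27 to -0.17, adjusted p = 0.331) and -0.55 (-1.1 to 0.01, adjusted p = 0.238), with 0.145% and 2.76% called lower. Without control2 replicate 1, the lowest control array, ACC gave -1.51 (adjusted p = 0.019) and JA -1.33 (adjusted p = 0.0117).

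IAA and BAP left PORA at the level of control1. The log2 values were 13.46 and 13.3 under IAA and 13.17 and 13.3 under BAP. Against control1 the changes were 0.13 (95% interval -0.42 to 0.68) and -0.02 (-0.57 to 0.54), while against control2 both were called higher, by 1.15 (adjusted p = 0.00549) and 1.0 (adjusted p = 0.0148), with 17.7% and 12.6% of probe sets called higher. Against the mean of the other 5 hormones, which includes the low ABA arrays (8.72 and 8.29), IAA and BAP were also higher. The differences were 2.24 ± 0.3 (adjusted p = 0.000649) and 2.07 ± 0.3 (adjusted p = 0.00102), in comparisons that called 14.4% and 11% of probe sets higher. The spike-in groups move with this result, and their part in it was not tested. Water alone separated the sets: PORA was lower by 1.02 ± 0.25 in control2 than in control1 (adjusted p = 0.0153, with 11.9% of probe sets called lower), a call that was lost without either control1 array (adjusted p = 0.0611 and 0.0923) and without control2 replicate 1 (-0.69, adjusted p = 0.115). From the highest mean to the lowest the order of the groups was IAA, control1, BAP, control2, JA, ACC, SA and ABA. The arrays of JA and ACC overlapped and so did those of control1 and BAP.

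**Figure D1:**
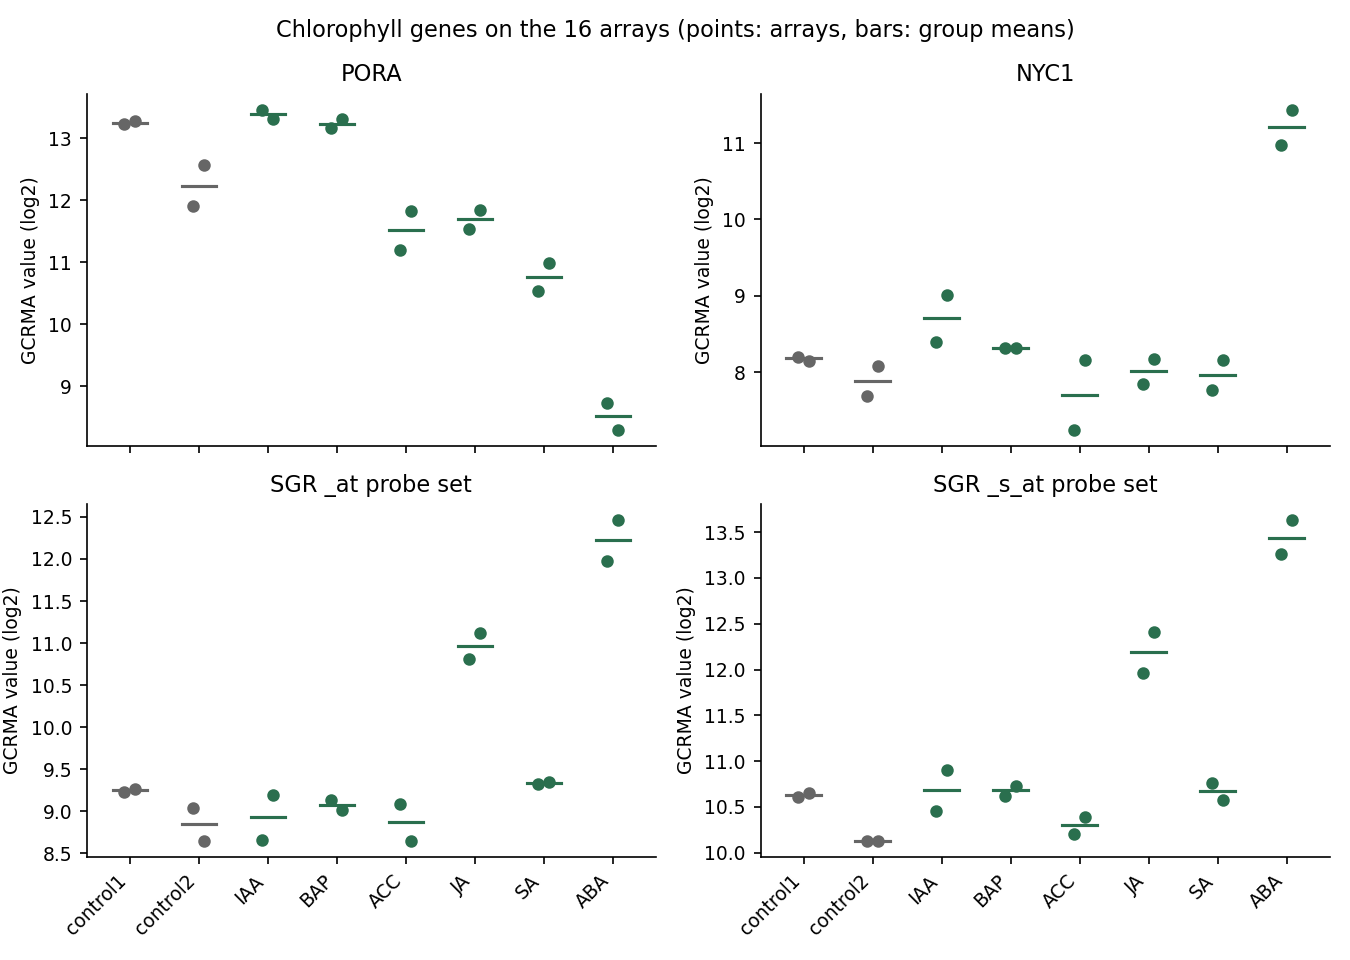
Log2 GCRMA value of each chlorophyll gene probe set (vertical axes) on the 16 arrays, by group. Points are single arrays and bars the group means of 2 arrays. PORA is lowest under ABA (8.72 and 8.29), NYC1 stands apart under ABA, and SGR stands apart under ABA and JA on both of its probe sets.

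NYC1 rose under ABA, and under the other 5 hormones it was not called changed against the 4 control arrays. Its log2 level was 8.2 and 8.15 in control1, 7.69 and 8.08 in control2, and 10.98 and 11.44 under ABA. The ABA arrays lay above the other 14 arrays, the highest of which was IAA replicate 2 at 9.01. The rise was 3.18 ± 0.27 log2 units, 9.05-fold (95% interval 2.6 to 3.76, adjusted p = 1.73e-06), in a comparison that called 21.2% of probe sets higher. In size it was 413th among the rises of the 24100 probe sets. The rise was 3.03 against control1 and 3.32 against control2 (adjusted p = 6.13e-06 and 3.03e-06), and 3.07 ± 0.24 against the mean of the other 5 hormones (adjusted p = 7.42e-07), where 21.8% of probe sets were called higher.

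The remaining groups of NYC1 lay close together. Under IAA it was 8.4 and 9.01, above the 4 control arrays, with a change of 0.67 ± 0.27 (95% interval 0.1 to 1.25, adjusted p = 0.171) of 0.53 against control1 (adjusted p = 0.477) and of 0.82 against control2 (adjusted p = 0.0547). The changes were 0.28 under BAP (-0.29 to 0.86), -0.33 under ACC (-0.91 to 0.25), -0.07 under SA (-0.65 to 0.51) and -0.03 under JA (-0.6 to 0.55), with adjusted p = 0.65, 0.588, 0.904 and 0.972. Against control1 and control2 they were 0.14 and 0.43 under BAP, -0.47 and -0.19 under ACC, -0.22 and 0.07 under SA, and -0.17 and 0.12 under JA, and none passed (adjusted p from 0.273 to 0.967). These intervals leave room for changes of up to about 0.9 log2 units in either direction, so equal levels were not shown. The ACC arrays were the least alike, at 7.24 and 8.16. Below ABA the means ran from IAA through BAP, control1, JA, SA and control2 to ACC, and from control1 downward the arrays of each group overlapped those of the next. ACC was lower than the mean of the other 5 hormones, which holds the high ABA arrays, by 1.14 ± 0.24 (adjusted p = 0.0101, with 6.74% of probe sets called lower), a call lost without ACC replicate 1 (-0.68, adjusted p = 0.201).

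SGR rose under ABA and, by less, under JA. On the _at probe set its log2 level was 9.23 and 9.27 in control1, 9.04 and 8.65 in control2, 11.97 and 12.46 under ABA, and 10.81 and 11.12 under JA. On the _s_at probe set it was 10.61 and 10.65 in control1, 10.13 and 10.13 in control2, 13.26 and 13.63 under ABA, and 11.96 and 12.41 under JA. On both probe sets the ABA arrays were the highest of the series, the JA arrays came next, and neither overlapped any other group.

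The ABA rise of SGR was 3.17 ± 0.22 log2 units on the _at set and 3.06 ± 0.2 on the _s_at set, 8.99-fold and 8.35-fold, with adjusted p = 3.38e-07 and 2.16e-07. Against control1 the rises were 2.97 and 2.81, and against control2 3.37 and 3.31, in comparisons that called 23.2% and 21.7% of probe sets higher. Under JA the rises were 1.92 ± 0.22 (95% interval 1.45 to 2.39, adjusted p = 0.000456) and 1.81 ± 0.2 (1.37 to 2.24, adjusted p = 0.000375), 3.79-fold and 3.5-fold. JA called 3.09% of probe sets higher, and by size these rises were 162nd and 188th of 24100. Against control2 the JA rises were 2.12 and 2.06 (adjusted p = 0.000265 and 7.66e-05), in a comparison that called 4.05% higher, and against control1 1.72 and 1.56, with 10.2% called higher. JA also exceeded the mean of the other 5 hormones, by 1.28 ± 0.19 and 1.03 ± 0.18 (adjusted p = 0.00128 and 0.00268, with 5.68% of probe sets called higher). The second of these calls was lost without JA replicate 2 (0.81, adjusted p = 0.0976).

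The other 4 hormones did not change SGR detectably against the 4 control arrays. Under SA the _at set read 9.33 and 9.35, just above the highest control array, with a change of 0.3 ± 0.22 (adjusted p = 0.433), and the _s_at set changed by 0.29 ± 0.2 (adjusted p = 0.396). Under IAA, BAP and ACC the changes ran from -0.18 to 0.03 on the _at set and from -0.08 to 0.3 on the _s_at set, with 95% intervals that reached no further than -0.65 and 0.73. Against control1 and control2 the _at set changed by 0.1 and 0.5 under SA, -0.38 and 0.02 under ACC, -0.32 and 0.09 under IAA, and -0.17 and 0.23 under BAP, and the _s_at set by 0.04 and 0.54 under SA and -0.33 and 0.17 under ACC, none of which passed. Against control2 alone the _s_at set was called higher under IAA and BAP, by 0.55 each (adjusted p = 0.0351 and 0.0445), whereas against control1, the set of their spike-in group, the change was 0.05 each. Below JA the order of the groups was not the same on both probe sets, and control2 had the lowest mean on both.

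**Figure D2:**
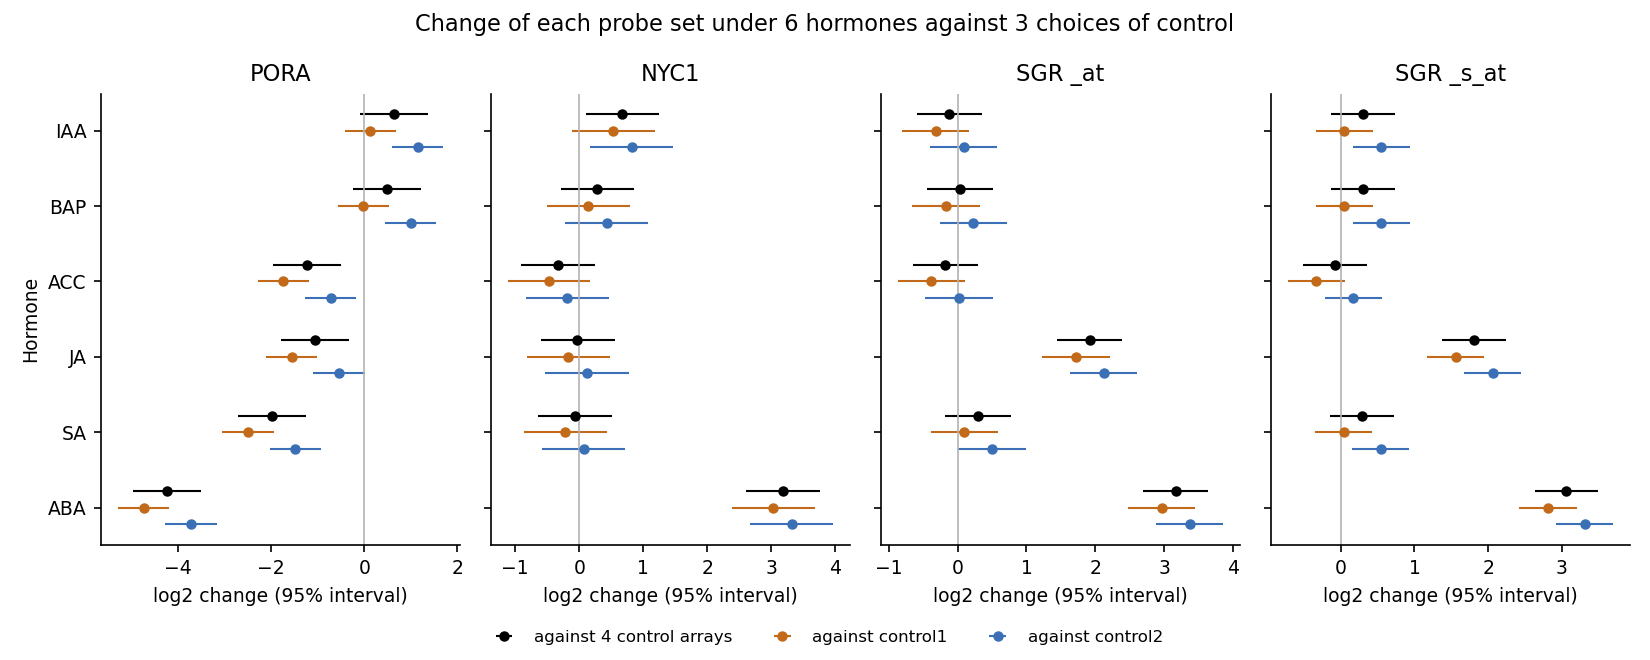
Log2 change (horizontal axes, with 95% intervals) of each probe set under the 6 hormones against the 4 control arrays (black), control1 (orange) and control2 (blue), 2 treated arrays each. The ABA changes and the JA rises of SGR stay clear of 0 with each choice, while the PORA changes under ACC and JA are nearer to 0 against control2 (-0.72 and -0.55) than against control1 (-1.74 and -1.56).

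NYC1 and SGR rose together under ABA and parted under JA. Under JA the 95% intervals of SGR (1.37 to 2.24 on the _s_at set) and NYC1 (-0.6 to 0.55) did not overlap. The log2 difference between the _s_at set of SGR and NYC1 was 4.12 and 4.24 on the JA arrays, against 2.05 to 2.49 on the 4 control arrays, and 2.27 and 2.19 on the ABA arrays. The JA arrays lay outside the control range and the ABA arrays inside it. An exact two-sided permutation test of the JA difference gave p = 0.133, the smallest that this form of the test can give for 2 against 4 arrays. The _at set gave a JA difference of 2.97 and 2.96, against 0.57 to 1.35 in the controls (exact permutation p = 0.133, again the smallest possible). On this set the IAA arrays, at 0.26 and 0.19, lay below the control range with the same p, whereas on the _s_at set 1 of the IAA arrays lay inside it (2.06 and 1.89, exact permutation p = 0.267).

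Across the 16 arrays PORA and NYC1 correlated with r = -0.63, PORA and the _s_at set of SGR with r = -0.72, and NYC1 and the _s_at set of SGR with r = 0.81. Without the 2 ABA arrays these values became 0.68, -0.14 and 0.14 over 14 arrays, so the opposite movement of PORA and NYC1 rested on ABA. The arrays share groups, spike-in group and normalization, and these correlations are descriptions without a test. The SGR probe sets correlated with each other at r = 0.98, and at 0.95 without ABA.

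**Figure D3:**
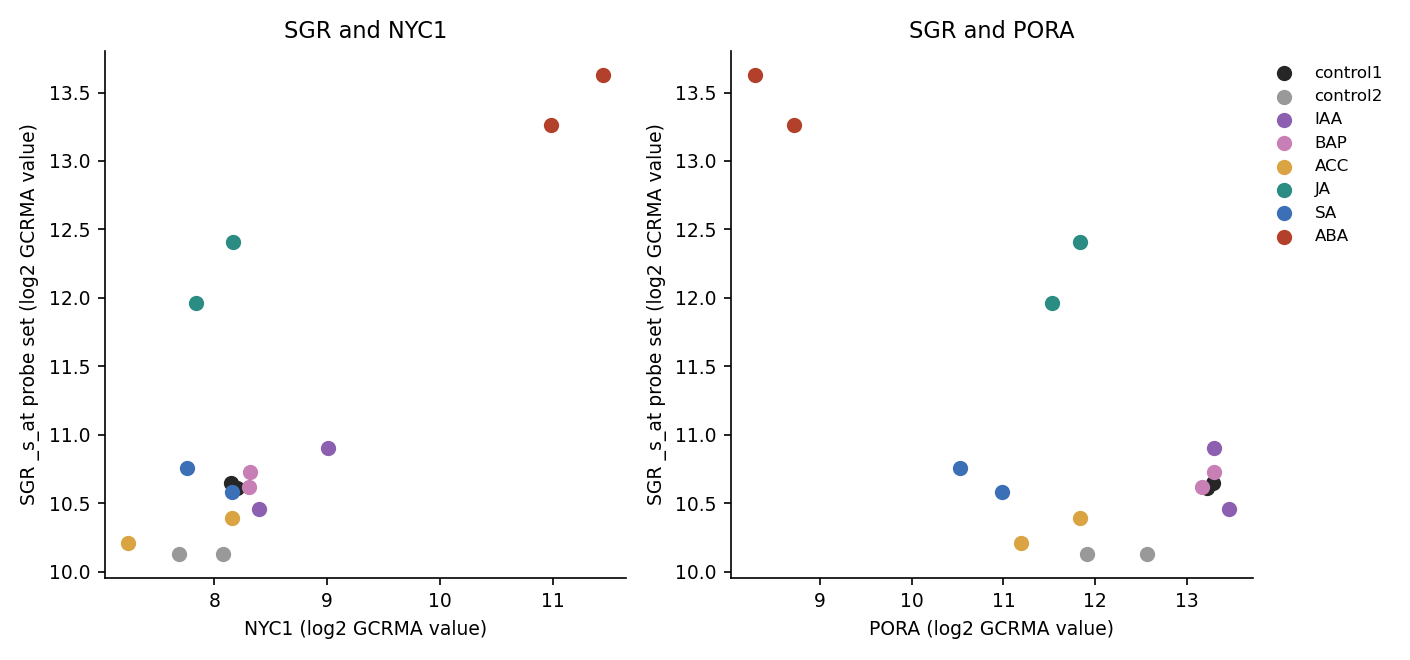
Log2 GCRMA value of the SGR _s_at probe set (vertical axes) against NYC1 (left) and PORA (right), 1 point per array, coloured by group. The ABA arrays sit apart in both panels, and the JA arrays are high for SGR (11.96 and 12.41) at NYC1 values of 7.84 and 8.17, inside the range of the control arrays.

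Of the 38 symbols listed for chlorophyll synthesis, 12 matched a gene of the reference table, 10 of these genes had a probe set of their own and 9 were tested. All 9 tested genes fell under ABA, PORA among them, with a median of -1.16 and a range from -4.24 to -0.42, while the median over all tested probe sets was -0.07 and 26.9% of them were called lower. The other 8 had a median of -1.12 and ran no lower than -1.61, the change of PORB. Early steps fell with GSA, the aminomutase that makes 5-aminolevulinic acid (-1.16 ± 0.17, adjusted p = 0.000122), HEMB, 5-aminolevulinic acid dehydratase (-0.69 ± 0.21), and HEMD, uroporphyrinogen III synthase (-0.42 ± 0.16, adjusted p = 0.048). PPOX1, protoporphyrinogen oxidase, fell by 1.41 ± 0.21.

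Among the magnesium chelatase subunits CHLD fell by 1.37 ± 0.17 (adjusted p = 4.74e-05) and CHLH by 1.08 ± 0.24 (adjusted p = 0.00269). A second, dimmer probe set of CHLH did not pass (-0.24, adjusted p = 0.493). CHLI was at most 5.14 on any array and was not tested. CHLG, chlorophyll synthase, which adds the phytol tail, fell by 0.5 ± 0.18 (adjusted p = 0.035). Of the 8 genes other than PORA, 6 passed against control1 and 6 against control2, where 29.7% and 27.7% of all tested probe sets were called lower. HEMD passed against neither set (adjusted p = 0.0859 and 0.0772), CHLG not against control1 (adjusted p = 0.0925) and HEMB not against control2 (adjusted p = 0.0557).

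PORB, the other protochlorophyllide oxidoreductase, shared the direction of PORA but not its size. Its log2 level was 12.62 and 12.65 in control1, 12.97 and 13.39 in control2, and 11.4 and 11.21 under ABA. The ABA arrays were below all others, and the fall was -1.61 ± 0.21 (95% interval -2.07 to -1.15, adjusted p = 6.62e-05), an interval that does not reach that of PORA. The log2 difference PORA minus PORB was -2.68 and -2.92 under ABA, -1.76 and -1.54 under SA, -1.55 and -1.39 under ACC, and -1.11 and -1.08 under JA. All 8 arrays lay below the control range of -1.07 to 0.63, those of JA only just (exact permutation p = 0.133 for each of the 4 hormones, the smallest possible). That range joins 2 unlike control sets. PORA lay above PORB in control1 (13.22 and 13.28 against 12.62 and 12.65). It lay below PORB in control2 (11.91 and 12.56 against 12.97 and 13.39), the set taken for these 4 hormones. The difference against control2 alone was not tested, and the JA arrays were close to its lower end. Under SA PORB was 12.28 and 12.53 and its change was -0.5 ± 0.21 (adjusted p = 0.159), or -0.78 against control2 (adjusted p = 0.0223) and -0.23 against control1 (adjusted p = 0.39). PORB was not lower in control2 than in control1, unlike PORA, and the probe set of PORB has the suffix _x_at, a design that can take signal from similar transcripts.

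Under SA the changes of all 9 tested synthesis genes were negative, from -1.98 for PORA to -0.33. Their median was -0.5 against -0.01 over all probe sets, but PORA alone passed, where 4.67% of probe sets were called lower. Against control2 CHLD (-0.67, adjusted p = 0.047) and PORB passed too, with 4.21% of probe sets called lower. Against control1 HEMB did (-0.72, adjusted p = 0.00365), with 16% called lower. Under IAA, BAP, ACC and JA 0 of the 9 genes were called against the 4 control arrays, with medians of 0.13, -0.16, -0.11 and -0.15. Over all tested probe sets the shares called in either direction were 4.14%, 1.29%, 0.614% and 5.96%. At an unadjusted p under 0.05, 6 of the 9 genes passed under SA, 1 under ACC, 1 under JA, and 0 under IAA and BAP. The share of all tested probe sets under this unadjusted threshold is not given, so these counts have no baseline and no result is read from them.

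**Figure D4:**
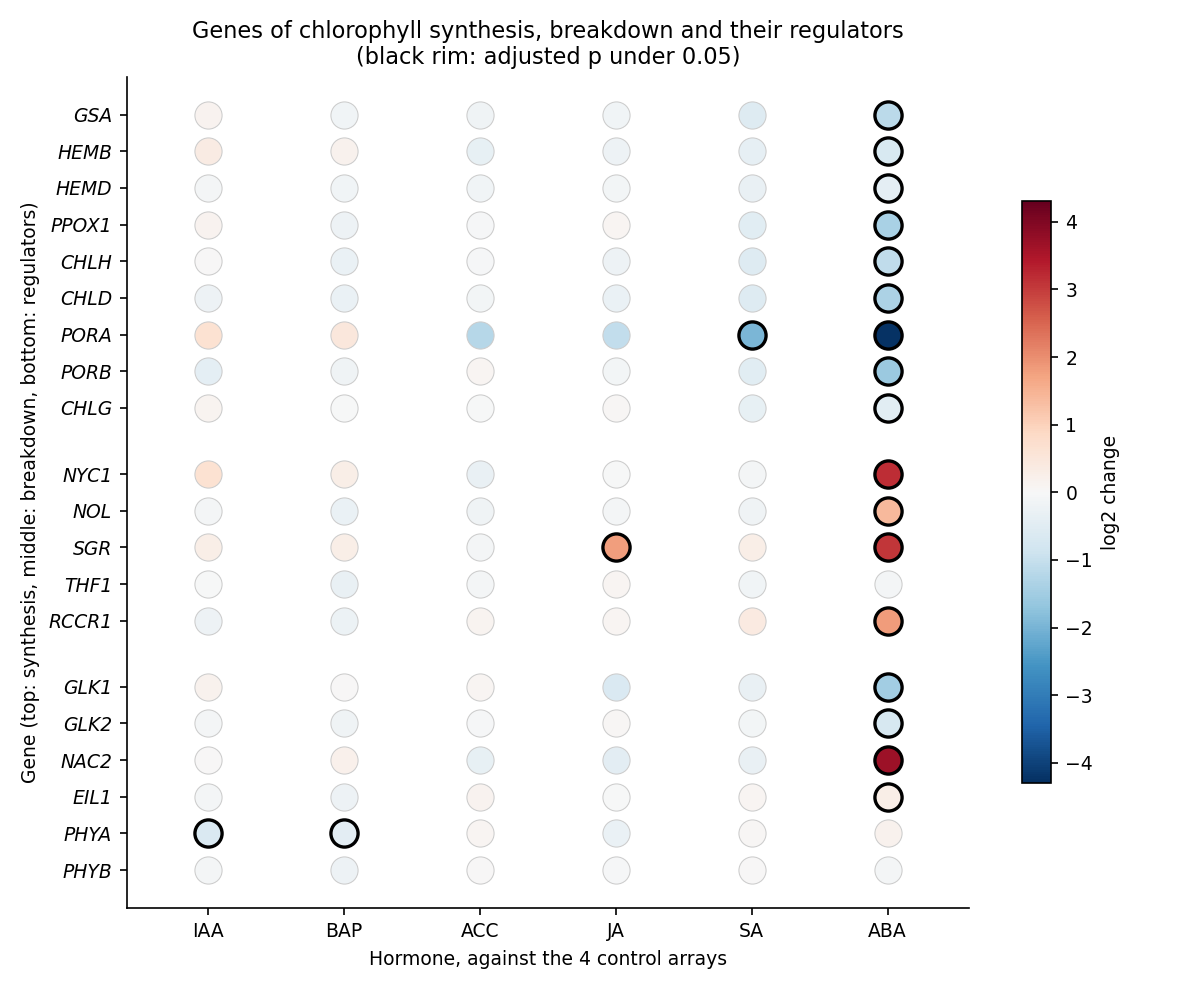
Log2 change against the 4 control arrays (colour, blue lower and red higher) for the tested genes of chlorophyll synthesis, breakdown and their regulators (rows) under 6 hormones (columns). A black rim marks an adjusted p under 0.05: all 9 synthesis genes are called lower under ABA, 4 of 5 breakdown genes are called higher, and PORA under SA and SGR under JA are the calls of these lists outside ABA other than PHYA.

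Of the 18 symbols listed for chlorophyll breakdown 5 matched, and all 5 genes were tested. Under ABA 4 of them rose and THF1 did not pass, with a median of 1.84, where 21.2% of all tested probe sets were called higher. Besides NYC1 and SGR these were NOL, the partner of NYC1 in chlorophyll b reduction, and RCCR1, red chlorophyll catabolite reductase, which acts after the ring has been opened. NOL was 9.62 to 9.95 in the controls and 11.02 and 11.26 under ABA, a rise of 1.4 ± 0.21 (adjusted p = 0.00019), and its second probe set rose by 1.6 (adjusted p = 0.00128). RCCR1 was 9.61 to 10.04 in the controls and 11.87 and 11.61 under ABA, a rise of 1.84 ± 0.16 (adjusted p = 2.74e-06). For both genes the ABA arrays were above every other array. THF1, needed in rice for the loss of chlorophyll-protein complexes in senescence, changed by -0.09 ± 0.19 (95% interval -0.51 to 0.33, adjusted p = 0.735).

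Under JA the rise of SGR was not accompanied by a call in NYC1, NOL, RCCR1 or THF1, whose brightest probe sets changed by -0.1 to 0.1. The second probe set of NOL changed by 0.52 (adjusted p = 0.381) and that of THF1 by 0.14 (adjusted p = 0.82). RCCR1 changed by 0.4 ± 0.16 under SA (adjusted p = 0.148), or by 0.52 against control1 (adjusted p = 0.047, with 12.7% called higher) and 0.28 against control2 (adjusted p = 0.367).

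The regulators that could be measured were fewer. Of 16 listed symbols 6 matched 7 genes with a probe set, and 6 of these were tested. Under ABA GLK1 and GLK2, transcription factors that activate genes of chlorophyll synthesis and light harvesting, fell by 1.49 ± 0.31 (adjusted p = 0.0019) and 0.72 ± 0.2 (adjusted p = 0.0108). Of the 4 tested probe sets of GLK2, 1 gave -0.19 (adjusted p = 0.658). GLK1 read 9.55 to 10.15 in the controls and 8.2 and 8.4 under ABA, the lowest values of the series. NAC2, a NAC transcription factor linked to leaf senescence in rice, rose from 6.87 to 7.47 in the controls to 11.02 and 10.71 under ABA, by 3.69 ± 0.21 (adjusted p = 6.49e-08). Under JA NAC2 changed by -0.47 ± 0.21 (adjusted p = 0.225) and GLK1 by -0.67 ± 0.31 (adjusted p = 0.25).

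EIL1, an ethylene signalling factor, rose by 0.27 ± 0.1 under ABA (adjusted p = 0.0486) but passed against neither control set alone (adjusted p = 0.0551 and 0.105). A second gene that matched the symbol EIL1 was at most 3.49 and untested. The photoreceptor genes PHYA and PHYB were not called under ABA. PHYA was called lower under IAA (-0.67 ± 0.09, adjusted p = 0.00214, and -0.61 against control1, with 1.74% and 0.734% called lower) and BAP (-0.46 ± 0.09, adjusted p = 0.036, with 0.469% called lower, but -0.41 and adjusted p = 0.108 against control1), and its second probe set did not pass (-0.27 and -0.36, adjusted p = 0.211 and 0.197).

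Under ABA more of the listed green leaf and root markers fell than rose, and both lists were mixed. Of the 6 listed green leaf genes with a probe set 5 were tested. Under ABA 3 fell, the Rubisco small subunit gene RBCS (-0.6), the Rubisco activase gene RCA (-1.17) and the fructose bisphosphatase gene FBP1 (-1.36). Of all tested probe sets 26.9% were called lower. A further probe set of RBCS was lower (-0.54, adjusted p = 0.0342), and another did not pass (-0.09, adjusted p = 0.791). PPDKB, pyruvate phosphate dikinase, rose (1.16), and the light-harvesting gene CAB2R did not pass on its brightest probe set (-0.2, adjusted p = 0.0597) but was lower on its second (-0.44, adjusted p = 0.031). The mean log2 level over the 6 genes was 11.4 to 11.59 under ABA, 11.99 to 12.19 under SA, 11.86 to 12.09 under JA and 11.8 to 12.02 in the 4 control arrays. PPDKB was also called higher under SA (2.01) and JA (1.37), reading 13.02 and 12.78 under SA and 12.1 and 12.41 under JA against 10.31 to 11.24 in the controls, while the median changes of the 5 tested genes were -0.14 and -0.24. RBCS1 stayed at or under 3.88 throughout and was not tested, but it is included in the mean over the 6 genes.

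Of 13 root genes 7 fell and 1 rose under ABA, with a median change of -0.62. Their mean level was 9.35 to 9.56 against 10.79 to 11.06 in the controls. ABA called 26.9% of all tested probe sets lower and 21.2% higher. The silicon transporter gene LSI2 fell by 6.79, the most of the 13. Under SA 4 fell and 1 rose (10.23 to 10.79), where 4.67% of all tested probe sets were called lower and 4.53% higher, and under JA 1 fell (10.65 to 10.84), where 2.87% were called lower. The part of tissue makeup in the changes of PORA, NYC1 and SGR was not tested.

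Among 2615 probe sets of other genes with a name, those most like PORA over the 16 arrays by Pearson's r were OsPSY2, phytoene synthase 2 (r = 0.983), OsSUS1, sucrose synthase (0.983 and 0.976 on separate probe sets), PP37 (0.971) and DAPDC (0.968). Their likeness also held without ABA, with r from 0.929 to 0.965 over 14 arrays. On those arrays PORA still separated the spike-in groups, at 13.17 to 13.46 for control1, IAA and BAP and 10.53 to 12.56 for the rest. The part of that split in these correlations was not tested. OsPSY2 changed by -1.94 under ABA and -0.91 under SA, and OsSUS1 by -1.65 and -0.62. For NYC1 they were PDHE1-A (0.97), OsCASPL5C1 (0.969), OsC3H35 (0.968), MFT1 (0.964) and GL2-4 (0.963), and without ABA these values fell to between 0.634 and 0.765. For the _at set of SGR, CIPK29 led (0.939), followed by ITPK4 (0.911), CBL10 (0.91), XBOS36 (0.904) and HOX7 (0.888). Without ABA, HOX7 kept 0.857 and CIPK29 0.849, while ITPK4, XBOS36 and CBL10 fell to 0.753, 0.715 and 0.714. The _s_at set shared ITPK4 (0.925), XBOS36, CBL10 and HOX7, and NAC048 (0.903) took the place of CIPK29. Without ABA these values fell to between 0.633 (CBL10) and 0.825 (HOX7).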

How the data were processed

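Total RNA (5 µg a sample) of 16 whole-seedling samples was hybridised to Affymetrix rice genome arrays. The authors deposited 1 GCRMA value per probe set and array, per the submitters' processing notes. Its version is not given in the sources used here, and the log base of the deposited values is not stated and was taken as log2 from their range (0.97 to 16.48). GCRMA corrects background, equalises arrays and summarises probes, which hides differences in total RNA. No scanner files were used here, so signal over background is unknown and the number of arrays limits precision.

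Of 57381 probe sets, 123 Affymetrix controls and 64 reporter sets were left out. By the platform annotation and RefSeq gene table, 22436 rice probe sets had 1 gene, 95 several and 34663 none. limma 3.58.1 in R 4.3.3 (lmFit, eBayes with intensity trend) fitted 7 groups with the 4 control arrays pooled (9 residual degrees of freedom) on the 24100 probe sets above 5 in at least 2 arrays, and a fit of 8 groups (8 degrees of freedom) gave the values against each control set. P-values were adjusted by Benjamini-Hochberg over all tested probe sets within a comparison, with a threshold of 0.05. In the fit of 8 groups they measure the spread between 2 biological replicates a group. In the fit of 7 groups that spread also holds the difference between control1 and control2. All hormones share the control arrays. The script was tested on simulated data.

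The members and gene lists were chosen with earlier results of these data known. All 4 probe sets of the members were named, and lists used the brightest probe set per gene. Likeness was ranked over tested probe sets of other genes with a name. Promoter and protein sequences were not used here.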

Additional observations from a re-analysis of the deposited data

How the results depend on the processing

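The ABA calls of all 4 probe sets and the JA calls of SGR against the controls kept direction and threshold under every alternative run: quantile normalization, median centring, other filters, other variance priors, array weights, the replicate block, other control arrays and each array left out. For ABA the adjusted p reached at most 0.000824, and for JA 0.027. Counts of changed probe sets moved most. Against the controls, with main counts of 148 (ACC), 310 (BAP), 998 (IAA), 1436 (JA) and 2217 (SA), control1 alone gave 5767 (ACC), 570 (IAA), 5759 (JA) and 6908 (SA), and control2 alone 82 (ACC), 5788 (BAP) and 7627 (IAA). Both control sets as groups gave 1854 (ACC), 1756 (BAP), 3860 (IAA), 3233 (JA) and 4682 (SA), and treated and control arrays only gave 1, 38, 176, 342 and 525. Array weights gave 3628 (ACC), 5154 (JA) and 8594 (SA), no filter 1380 (SA), and arrays of 1 spike-in group, chosen after seeing the data, 20 (ACC), 80 (BAP) and 268 (IAA). Leaving out 1 array gave 15 to 455 (ACC), 75 to 568 (BAP), 309 to 2304 (IAA), 243 to 1786 (JA), 432 to 2784 (SA) and, against 11585, 7803 to 11704 (ABA).

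With control2 alone, and in 1 spike-in group, the change reversed for NYC1 under JA (0.12) and SA (0.07) and for SGR under ACC (0.02 on _at, 0.17 on _s_at). It reversed with control2 alone for SGR _at under IAA (0.09), and with control1 alone or in 1 spike-in group for PORA (-0.02) and SGR _at (-0.17) under BAP, the latter also with array weights (-0.12). PORA became significant under ACC with array weights (-1.61), control1 (-1.74) and both sets as groups (-1.23), under JA likewise (-1.43, -1.56, -1.06), and with control2 under BAP (1.0) and IAA (1.15), as did SGR _s_at (0.55 for both). The PORA call under SA was lost with treated and control arrays only (-1.98). Against the other hormones NYC1 passed under JA with median centring (-0.86) and with a floor of 7, array weights and the replicate block (-0.77 each, adjusted p = 0.0139 with the block). Array weights and the block let NYC1 pass under SA (-0.83, adjusted p = 0.0177 with the block), and array weights PORA (-0.91) and SGR _at (-0.67). Without the ABA arrays among the others, also chosen after seeing the data, PORA became -1.7 under SA, which passed (adjusted p = 0.00532), and -0.53 under JA. In that setting NYC1 came to -0.16 under JA and -0.22 under SA, SGR _at to -0.12 and SGR _s_at to -0.29 under SA, and none of these passed. SGR under JA stayed called (1.91 on _at, 1.6 on _s_at). Between the control sets SGR _s_at passed with array weights, the block and the 4 control arrays alone (-0.5, adjusted p = 0.0367 with the block). The block changed no other call. The labels do not say what a replicate number shares, and deviations of same-numbered arrays correlated with r of -0.19 to 0.45 over the 28 pairs of groups, above 0.1 in 10 and below -0.1 in 5, so the numbers were not taken as pairs. In all, 924 values of the members kept direction and call, 28 reversed direction, 28 gained a call and 16 lost one. The counts of changed probe sets are not among these values, and the causes of the shifts were not tested.

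Leaving out 1 array gave these ranges where a direction or call changed. Against the controls they were -0.79 to 0.13 (NYC1, ACC), -0.19 to 0.14 (NYC1, JA), -0.27 to 0.13 (NYC1, SA), -1.55 to -0.91 (PORA, ACC), -1.33 to -0.88 (PORA, JA), -2.26 to -1.75 (PORA, SA), -0.4 to 0.04 (SGR _at, ACC), -0.1 to 0.11 (SGR _at, BAP), -0.38 to 0.15 (SGR _at, IAA) and -0.18 to 0.01 (SGR _s_at, ACC). Against the other hormones they were -1.6 to -0.68 (NYC1, ACC), -0.23 to 0.37 (NYC1, IAA), -0.93 to -0.61 (NYC1, JA), -1.03 to -0.63 (NYC1, SA), -1.46 to -1.02 (SGR _at, ACC), -1.05 to -0.93 (SGR _at, BAP), -1.43 to -0.9 (SGR _at, IAA), -0.83 to -0.72 (SGR _s_at, BAP), -0.99 to -0.55 (SGR _s_at, IAA), 0.81 to 1.26 (SGR _s_at, JA) and -0.88 to -0.7 (SGR _s_at, SA). Between the control sets PORA ranged from -1.34 to -0.69.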
